A study of Mus musculus with 4 samples.

Results

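The cells described here were precursor and immature B cells from mouse bone, 363 of the 31279 cells that passed filtering in 4 libraries. They were chosen by counts of unique molecular identifiers (UMIs), each standing for 1 captured transcript molecule. A member held at least 3 UMIs of Cd79a and Cd79b together and at least 2 of Vpreb1, Vpreb3 and Igll1 together. It also held fewer than 2 UMIs of Cd3e, Cd3d and Cd3g, which mark T cells, and fewer than 3 of Csf1r, Ms4a6c and Ccr2, which mark monocytes. Filtering kept barcodes with 1000 to 40000 UMIs and 200 or more genes, of which mitochondrial genes took no more than 10% of the UMIs and haemoglobin genes no more than 0.2%. The other 1130 cells that met the Cd79, Cd3 and monocyte limits but had fewer than 2 UMIs of the surrogate light chain genes served for comparison and are called other Cd79-positive cells.

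The study asked how the cell types of bone respond to the loss of load. Wild-type C57BL/6J mice were hung by the tail for 28 days, which unloads the hind limbs (HLU, 2 libraries), or were left untreated (Ctrl, 2 libraries), and the labels give no other allele or agent for either group. The description of the series and the methods give different ages for the animals, so no age is stated here. Tibiae and femurs were flushed of marrow and digested with enzymes before 10x Genomics 3′ single-cell sequencing, so the B lineage cells described here are those left in the bone after flushing. The members numbered 52 in Ctrl replicate 1, 62 in Ctrl replicate 2, 231 in HLU replicate 1 and 18 in HLU replicate 2. Their median UMI counts were 3370.5, 4419.5, 3941 and 2427 in the same order, and their summed UMIs were 280126, 427934, 1256088 and 61880. HLU replicate 1 thus held most of the members and HLU replicate 2 the fewest and shallowest. No member barcode was shared between any pair of libraries, although 23 to 36 barcodes of all kinds were.

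B lymphocytes arise in bone marrow by ordered rearrangement of their immunoglobulin genes. A pro-B cell joins the heavy chain segments with the recombinase encoded by Rag1 and Rag2, and the polymerase encoded by Dntt adds bases at the joints. The first heavy chain pairs with a surrogate light chain, made of the products of Igll1 and Vpreb1 or Vpreb2, and with the signalling chains Cd79a and Cd79b to form the pre-B cell receptor. The cell then divides, shuts off the surrogate light chain, turns the recombinase back on and joins a kappa or lambda light chain. An immature B cell shows IgM on its surface, and gains MHC class II, Cd20 (Ms4a1) and IgD (Ighd) as it matures. Vpreb3 encodes a related chain that stays on for longer, and Ebf1 and Pax5 encode transcription factors that hold cells in the B lineage.

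The surrogate light chain genes that chose the members lie at distinct places (mm10, GENCODE M21). Igll1 (ENSMUSG00000075370) spans chr16:16860671-16863985 and Vpreb1 (ENSMUSG00000059305) spans chr16:16868403-16870843, both on the minus strand, and their RefSeq start sites are 5270 bases apart. Vpreb3 (ENSMUSG00000000903) lies alone at chr10:75943057-75949657 on the plus strand. Cd79a is at chr7:24897381-24902197 and Ebf1 at chr11:44617317-45008091, both on the plus strand. The 250 bases before the RefSeq start of each surrogate light chain gene are shown because Igll1 and Vpreb1 were detected together in cells while Vpreb3 was also detected without them. They come from RefSeq (GRCm38.p6), 5′ to 3′ on the strand of the gene, with capitals for matches to CCCNNGGG (a palindrome in the motif of Ebf1), to CAGGTG (an E-box read by E2A proteins) or to GAGGAA (a core read by Ets factors), the latter pair searched on both strands. The Igll1 stretch is chr16:16863986-16864235, the Vpreb1 stretch chr16:16869256-16869505 and the Vpreb3 stretch chr10:75948050-75948299. The Vpreb1 and Vpreb3 stretches lie within the GENCODE spans given above, so they precede the RefSeq starts and not the starts of those spans.

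Igll1: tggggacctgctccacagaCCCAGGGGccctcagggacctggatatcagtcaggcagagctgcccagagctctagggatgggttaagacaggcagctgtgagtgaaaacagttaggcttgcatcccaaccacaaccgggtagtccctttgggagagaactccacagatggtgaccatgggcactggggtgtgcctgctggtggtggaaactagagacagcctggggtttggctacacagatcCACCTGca
Vpreb1: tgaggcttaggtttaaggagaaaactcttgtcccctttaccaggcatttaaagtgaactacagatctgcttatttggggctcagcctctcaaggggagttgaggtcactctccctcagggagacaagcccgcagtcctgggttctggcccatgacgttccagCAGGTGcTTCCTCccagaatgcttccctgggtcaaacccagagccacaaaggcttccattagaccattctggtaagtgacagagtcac
Vpreb3: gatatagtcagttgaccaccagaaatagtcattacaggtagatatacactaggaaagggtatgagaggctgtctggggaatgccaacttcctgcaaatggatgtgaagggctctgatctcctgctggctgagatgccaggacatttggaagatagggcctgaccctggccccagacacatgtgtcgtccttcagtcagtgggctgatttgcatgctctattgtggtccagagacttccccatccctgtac

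The Igll1 stretch held CCCNNGGG starting at base -231 and CAGGTG at base -8, counted from the RefSeq start. The Vpreb1 stretch held CAGGTG at -88 and GAGGAA at -81, and none of the 3 motifs was found in the Vpreb3 stretch. Of 32851 RefSeq stretches of this length, 11.8% held CCCNNGGG, 17.2% held CAGGTG and 23.3% held GAGGAA, so such matches are common and mark no site. The Vpreb1 stretch overlaps an exon of a non-coding transcript model of Vpreb1. It also shares a run of 91 identical bases, from -94 to -4, with the region before Vpreb2 (bases -238 to -148 there). Vpreb1 and Vpreb2 are close copies, and how their reads were divided is uncertain.

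The label was checked against markers that the rule did not use. Ebf1, the B lineage factor, was detected in 51 of 52, 62 of 62, 226 of 231 and 15 of 18 members of Ctrl replicates 1 and 2 and HLU replicates 1 and 2. Rag1 or Rag2 was detected in 27 of 52 members of Ctrl replicate 1 (51.9%, exact 95% interval 37.6 to 66.0%), 24 of 62 of Ctrl replicate 2 (38.7%, 26.6 to 51.9%) and 117 of 231 of HLU replicate 1 (50.6%, 44.0 to 57.3%). Among the other Cd79-positive cells, the share was 1.08%, 0%, 1.08% and 0% per library, at median depths of 3668, 3961, 3699 and 2408 UMIs. Among neutrophils (at least 20 UMIs of S100a8 and S100a9, 0 of Cd79) it was at most 0.109%, at median depths of 3759.5 to 6600.5 UMIs, and no T cell (at least 2 Cd3 UMIs, 0 of Cd79) held a Rag UMI. With every cell thinned to 1000 UMIs, which left out none, and the members kept as chosen at full depth, 26.9%, 12.9% and 20.3% of the members of those 3 libraries still held a Rag UMI. In these 3 libraries a part of the members thus carried the recombinase that marks precursor B cells, and the other members held no Rag UMI.

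The 18 members of HLU replicate 2 went against it. None held a UMI of Rag1, Rag2, Igll1, Vpreb1, Dntt, Sox4, Myb or Lef1, and 0 of 18 cells, at 3 counts, allows a share of cells with a UMI of up to 16.7% at this depth. All 18 entered the rule through Vpreb3 alone, with a median of 2 and at most 5 UMIs, whereas the median was 6.0, 5.5 and 7.0 UMIs of the surrogate light chain genes in Ctrl replicate 1, Ctrl replicate 2 and HLU replicate 1. All 18 held Igkc and Cd74, the latter encoding the invariant chain of MHC class II. Their Ms4a1 level was 646 raw CPM (a gene's UMIs scaled to the sum of all UMIs of these cells, without TMM factors) and their Ighd level 1067 raw CPM. In the other Cd79-positive cells of the same library these genes stood at 257 and 863 raw CPM. The members of HLU replicate 2 are therefore called Vpreb3-positive B cells where they are described alone, and HLU is compared with Ctrl with and without that library.

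Transcripts of other cells were present among the members in amounts that differed between libraries. The summed level of 23 cartilage and mesenchymal transcripts was 2685 and 13294 raw CPM in Ctrl replicates 1 and 2, and 33.4 and 145 raw CPM in HLU replicates 1 and 2. Their most abundant gene in the Ctrl libraries was Dcn, which encodes the matrix proteoglycan decorin. It was detected in 50 of 52 and 56 of 62 Ctrl members, and in 1 of 231 and 1 of 18 HLU members. The same list stood at 11761 and 13379 raw CPM in other Cd79-positive cells of the Ctrl libraries and at 37.6 and 206 in those of the HLU libraries, so it differed between libraries in both populations. The summed level of 14 neutrophil transcripts was 3488, 9632, 52039 and 7191 raw CPM in Ctrl replicates 1 and 2 and HLU replicates 1 and 2. Its most abundant gene was S100a9 in all libraries but Ctrl replicate 2, where it was S100a8.

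Some of these transcripts came from few cells. Over 1% of the UMIs were from the cartilage and mesenchymal list in 3 and 3 Ctrl members and in 0 HLU members. At least 1% were S100a8 or S100a9 in 4, 4, 42 and 2 members of Ctrl replicates 1 and 2 and HLU replicates 1 and 2. At least 10 UMIs of Jchain, which joins secreted IgM and IgA in plasma cells, were held by 2, 0, 2 and 1 members. A single cell carried 92.9%, 8.1%, 34.7% and 88.0% of all Igkc UMIs of the members of those libraries, so the summed Igkc level says little about the typical cell. Of the 12 T cell and natural killer genes, 3, 4, 9 and 2 had a UMI, with at most 32.3 raw CPM for Lck, and Cd3e had 1 UMI in all members together. Putative doublets numbered 3, 3, 32 and 1 among the members.

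The members were divided by UMIs of the surrogate light chain genes Igll1 and Vpreb1, and the protein was not measured. Every member held Vpreb3, 290 of 363 held it alone, 62 held all 3 genes, 7 held Vpreb3 and Vpreb1, and 4 held Vpreb3 and Igll1. No member entered through Igll1 or Vpreb1 without Vpreb3. Cells with at least 2 UMIs of Igll1 and Vpreb1 are called Igll1/Vpreb1-high here, and numbered 63. Few cells lay near this limit, 1, 3, 6 and 0 with exactly 1 UMI and 0, 1, 2 and 0 with exactly 2 in Ctrl replicates 1 and 2 and HLU replicates 1 and 2. Conventional light chains (Igkc, Iglc1, Iglc2 and Iglc3) reached at least 3 UMIs in 8 of 27 dividing and 4 of 36 non-dividing Igll1/Vpreb1-high cells, and in 65 of 68 dividing and 228 of 232 non-dividing cells of the rest. The share of cells meeting this light chain limit was 0.165 to 1.59% in neutrophils and 0 to 1.52% in T cells, which should lack them. Transcripts of Igll1 and Vpreb1, which the rule used, and of conventional light chains were thus largely held by different cells, in each of the 3 libraries with Igll1/Vpreb1-high cells, while Vpreb3 was held by both.

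**Figure D1:**
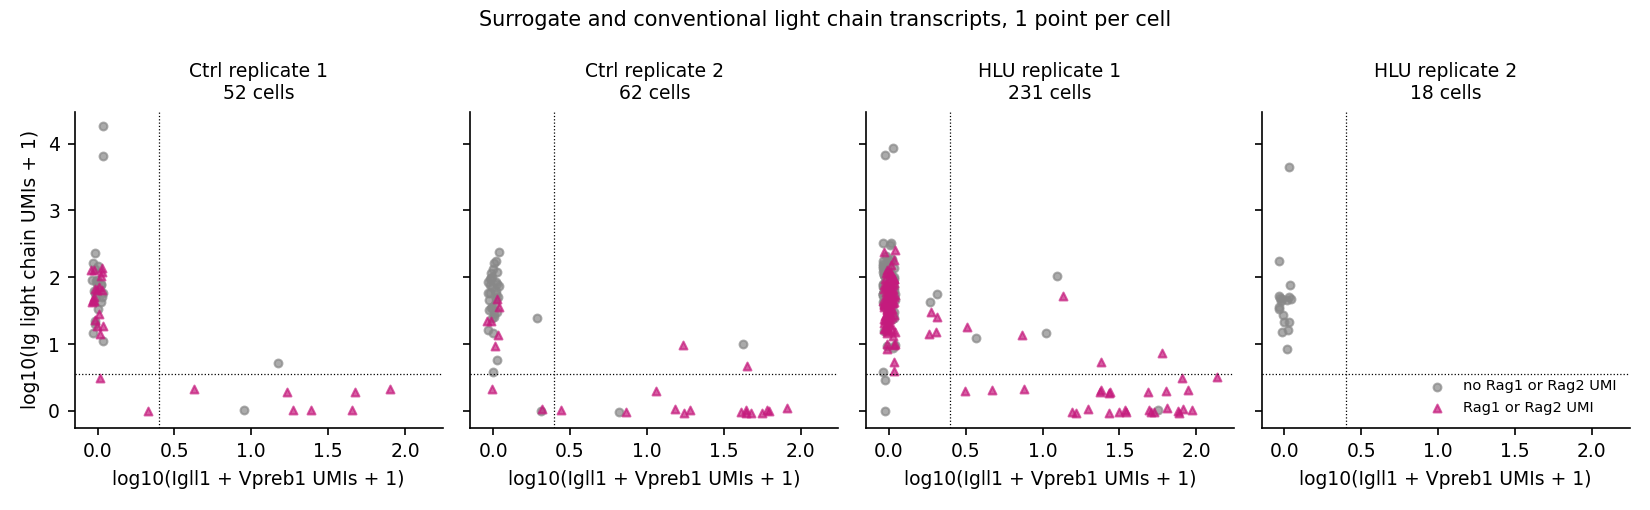
UMIs of Igll1 and Vpreb1 (horizontal, log10 of UMIs plus 1) against UMIs of Igkc and Iglc1 to Iglc3 (vertical, same scale) in each member, 1 panel per library, with triangles for cells holding a Rag1 or Rag2 UMI and dotted lines at the limits of 2 and 3 UMIs. Most cells lie along 1 axis or the other, and the 18 cells of HLU replicate 2 all lie on the left without a triangle.

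A further split by recombinase, added after these values were seen, gave 3 classes: 63 Igll1/Vpreb1-high cells, 113 low cells with a Rag1 or Rag2 UMI and 187 low cells without one. Dntt, Lef1 and Erg, chosen after their values were seen, were highest in the first class. Over all libraries, Dntt stood at 1017 raw CPM in the high class, against 4.0 and 1.9 in the low classes with and without Rag. Lef1, a transcription factor of pro-B cells, stood at 524, 61 and 24 raw CPM in the same order. Erg, another early factor, was detected in 23.8% of the high cells and in 0% of either low class. Rag1 or Rag2 was held by 55 of the 63 high cells. The classes were defined from the same cells, so these levels are a description and were not tested.

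Bach2, Sox4, Ebf1 and Ighm were highest in the low cells with a Rag UMI. Bach2, which encodes a repressor active in pre-B and B cells, stood at 169 raw CPM in the high class, 728 in the low class with Rag and 246 in the low class without it. Sox4 stood at 524, 938 and 231 raw CPM and Ebf1 at 3403, 4230 and 1707. Il7r, the receptor for interleukin-7, stood at 353, 462 and 112 raw CPM over all libraries, although in Ctrl replicate 2 it was lower in the low class with Rag than in the high class. Ighm, the IgM heavy chain, stood at 1815, 5988 and 4481 raw CPM. The order of the classes for Bach2, Sox4, Ebf1 and Ighm was low with Rag highest in Ctrl replicate 1, Ctrl replicate 2 and HLU replicate 1 alike.

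Cd74, Ms4a1, Ighd, Fcmr and H2-Aa, also chosen after their values were seen, were highest in the low cells without a Rag UMI. Cd74 stood at 6.1, 226 and 3457 raw CPM in the high class, the low class with Rag and the low class without it. It was detected in 3.2%, 34.5% and 81.8% of the cells at median depths of 6545, 3543 and 3721 UMIs, so the deepest class showed it least often. Ms4a1 stood at 2.0, 28 and 272 raw CPM, Ighd at 41, 113 and 400, and Fcmr, the receptor for the Fc part of IgM, at 2.0, 69 and 375. H2-Aa, an MHC class II chain, stood at 2.0, 36 and 330 raw CPM. Vpreb3 itself, which was part of the rule, stood at 3228, 2334 and 957. The median number of Igkc UMIs per cell, which single plasma-like cells do not move, was 0, 21 and 39.

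**Figure D2:**
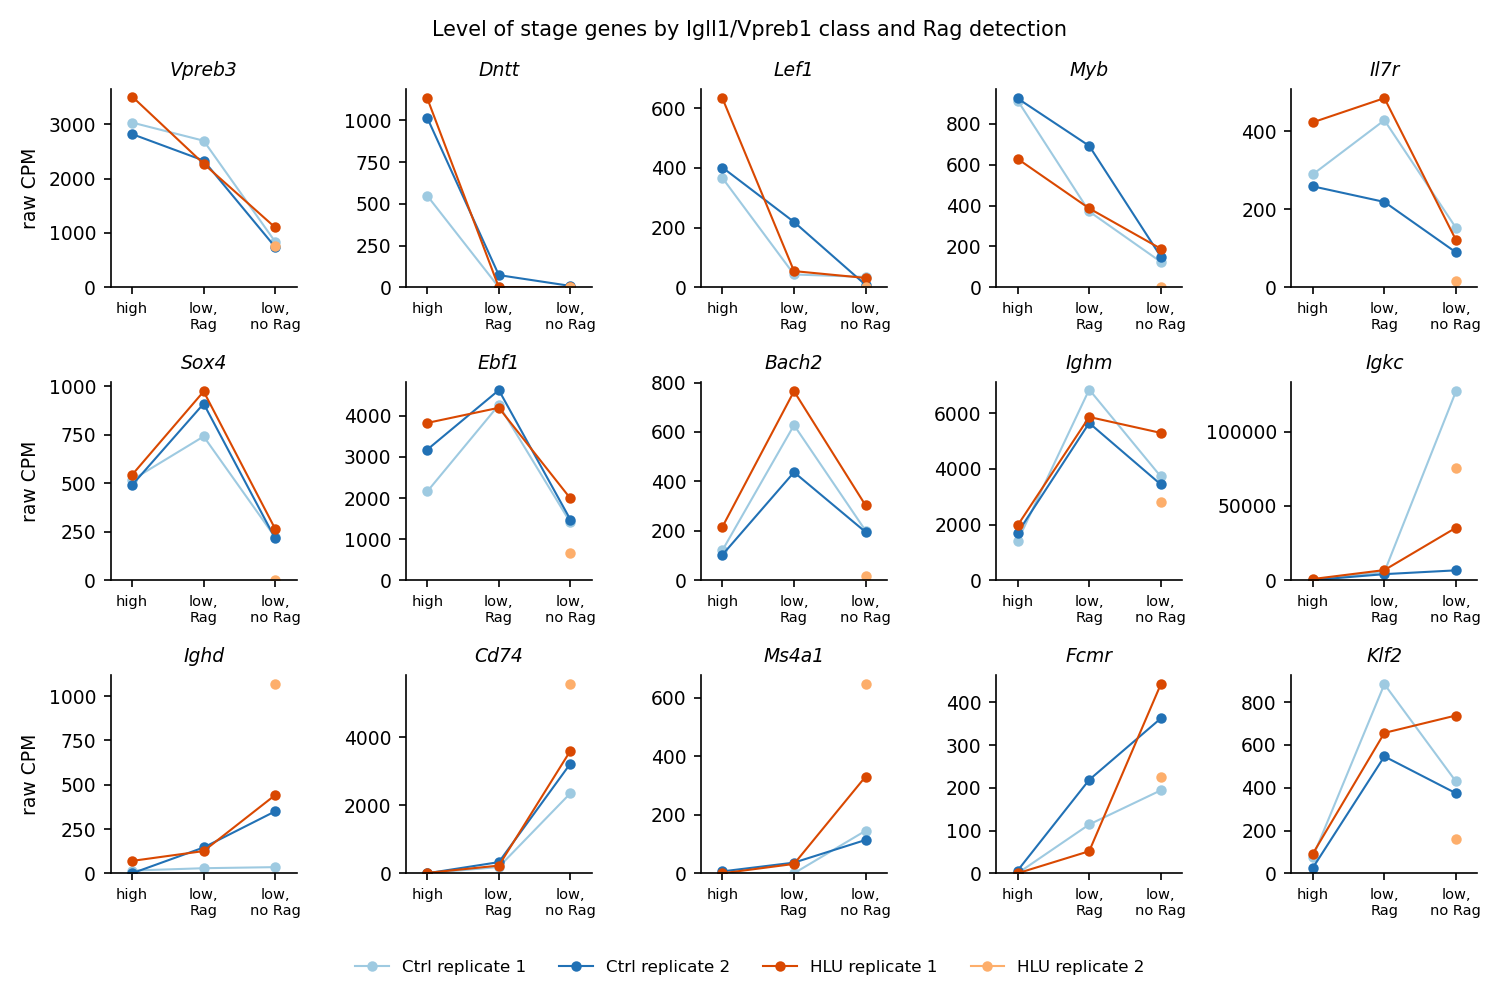
raw CPM (vertical, linear from 0) of 15 genes in Igll1/Vpreb1-high cells, low cells with a Rag1 or Rag2 UMI and low cells without one, with 1 line per library. Dntt and Lef1 are highest in the first class, Sox4, Ebf1, Bach2 and Ighm in the second, and Cd74, Ms4a1 and Fcmr in the third, and HLU replicate 2 has a value in the third class only.

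The 3 classes were filled differently in each library. Ctrl replicate 1 held 9 high cells, 20 low cells with Rag and 23 without. Ctrl replicate 2 held 18, 8 and 36, HLU replicate 1 held 36, 85 and 110, and HLU replicate 2 held 0, 0 and 18. As a share of the members, the middle class of HLU replicate 1 lay between those of the Ctrl libraries.

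The limit of 2 surrogate light chain UMIs was a point on a continuous scale. In HLU replicate 1, 347 cells with enough Cd79 UMIs held 0 surrogate light chain UMIs, 115 held 1, 39 held 2, 19 held 3 and 146 held 6 or more. The share of these cells with a Rag UMI was 0.288%, 3.48%, 10.3%, 15.8% and 70.5%. In Ctrl replicate 1 the shares were 0% at 0 UMIs, 8.33% at 1, 22.2% at 2 and 67.9% at 6 or more, and in Ctrl replicate 2 they were 0%, 0%, 5.56% and 64.5%. In this share the cells just inside the limit were nearer to those just outside it than to those with 6 or more UMIs. A further 1, 0, 5 and 1 barcodes met the gene limits but failed the filters on cells.

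The members made up 0.711% of the cells kept in Ctrl replicate 1 (exact 95% interval 0.532 to 0.932%), 0.827% in Ctrl replicate 2 (0.635 to 1.06%), 3.05% in HLU replicate 1 (2.68 to 3.46%) and 0.202% in HLU replicate 2 (0.120 to 0.319%). The Ctrl libraries lay between the HLU libraries, with HLU replicate 1 well above and HLU replicate 2 below. The Ctrl mean was 0.769% ± 0.0820 and the HLU mean 1.63% ± 2.01 (SD, n = 2 libraries per group). A two-sided exact permutation test gave p = 1, where 0.33 is the smallest p that 2 libraries against 2 allow. HLU exceeded Ctrl by 2.28 percentage points when HLU replicate 2 was left out, and the difference was -0.567 when HLU replicate 1 was left out instead. Without cells rich in skeletal transcripts the shares were 1.43%, 1.29%, 3.0998% and 0.205%, and the difference of 0.857 points between the group means became 0.291. Without cells rich in neutrophil transcripts as well they were 4.54%, 4.33%, 12.02% and 0.637%, and the difference was 1.89 points. Intervals cover counting error only.

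Measured against B lineage cells, the pattern was different. The members were 52 of 145 Cd79-positive cells (35.9%) in Ctrl replicate 1, 62 of 277 (22.4%) in Ctrl replicate 2, 231 of 693 (33.3%) in HLU replicate 1 and 18 of 378 (4.76%) in HLU replicate 2. HLU replicate 1 lay between the Ctrl libraries, and HLU replicate 2 lay below both. The Ctrl mean was 29.1% ± 9.53 and the HLU mean 19.0% ± 20.2 (SD, n = 2 libraries per group, exact permutation p = 0.667). The difference of -10.1 percentage points turned to 4.21 when HLU replicate 2 was left out.

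**Figure D3:**
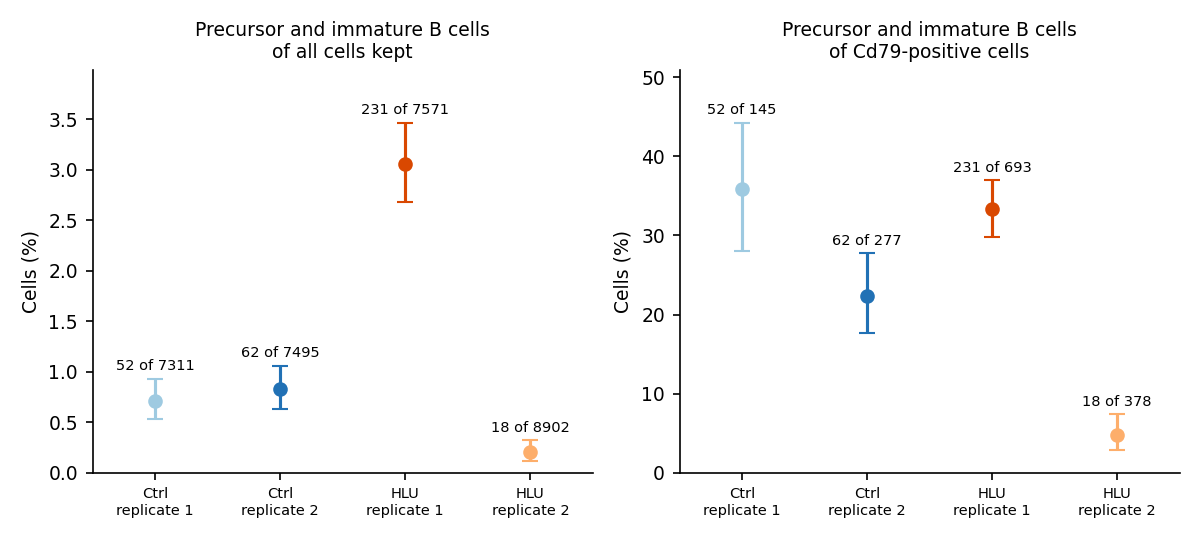
Share of members among all cells kept (left) and among Cd79-positive cells (right) in each library, in percent from 0, with exact 95% intervals and the cell counts above each point. The left panel has HLU replicate 1 above both Ctrl libraries and HLU replicate 2 below them, while on the right HLU replicate 1 lies within the Ctrl range.

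Members that were dividing, with at least 3 UMIs of the mitosis genes, were 8 of 52 (15.4%), 20 of 62 (32.3%), 66 of 231 (28.6%) and 1 of 18 (5.56%) in Ctrl replicates 1 and 2 and HLU replicates 1 and 2. The groups overlapped (Ctrl mean 23.8% ± 11.9, HLU mean 17.1% ± 16.3, SD, n = 2 libraries per group, exact permutation p = 0.667). The same limit was met by 17.2%, 17.2%, 22.9% and 6.67% of the other Cd79-positive cells in the same order of libraries. It was met by 36.8 to 42.7% of neutrophils and 12.8 to 30.3% of T cells. Many members lay near it, with 8, 16, 30 and 1 at exactly 2 UMIs and 3, 4, 18 and 1 at exactly 3. Thinned to 1000 UMIs, 5.77%, 9.68%, 5.63% and 0% of these members were dividing, and both HLU libraries were then below both Ctrl libraries, HLU replicate 1 only narrowly. When the members were chosen again after thinning, 2 of 19, 2 of 18, 3 of 117 and 0 of 1 were dividing (10.5%, 11.1%, 2.56% and 0%, exact permutation p = 0.33). Within the members, 27 of 63 Igll1/Vpreb1-high cells and 68 of 300 low cells were dividing, at median depths of 9538 UMIs for dividing high cells and 5534.5 UMIs for dividing low cells against 5098.5 and 3332.5 for the others. With putative doublets left out, 8 of 49 (16.3%), 19 of 59 (32.2%), 47 of 199 (23.6%) and 1 of 17 (5.88%) members were dividing. In HLU replicate 1, 42 of 231 members held at least 1% S100a8 and S100a9 UMIs, and the part of neutrophil transcripts in its dividing share was not tested.

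Igll1/Vpreb1-high cells were 9 of 52 members (17.3%, exact 95% interval 8.23 to 30.3%) in Ctrl replicate 1, 18 of 62 (29.0%, 18.2 to 41.9%) in Ctrl replicate 2, 36 of 231 (15.6%, 11.2 to 20.9%) in HLU replicate 1 and 0 of 18 in HLU replicate 2. The Ctrl mean was 23.2% ± 8.29 and the HLU mean 7.79% ± 11.02 (SD, n = 2 libraries per group). The rule used Igll1 and Vpreb1, so this share is a description with no test. The interval of HLU replicate 1 overlapped that of each Ctrl library. Cells with at least 3 light chain UMIs were 80.8%, 71.0%, 87.0% and 100% of the members in the same order (Ctrl mean 75.9% ± 6.93, HLU mean 93.5% ± 9.18, SD, n = 2 libraries per group, exact permutation p = 0.33). The difference was -7.59 percentage points for the high share and 11.1 for the light chain share without HLU replicate 2, against -15.4 and 17.6 with it.

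UMIs of the members were then summed per library and tested for HLU against Ctrl. By the quasi-likelihood test of edgeR, 0 of 4842 genes (0.0%) passed at an adjusted p of 0.05, 186 (3.84%) passed before adjustment, and the smallest adjusted p was 0.0963. DESeq2 called 24 genes (0.496%), 4 higher (0.0826%) and 20 lower (0.413%) in HLU, and 82 (1.69%) before adjustment. Without HLU replicate 2, when HLU replicate 1 was assumed to vary like the Ctrl libraries, 105 of 6184 genes (1.7%) passed, 36 higher (0.582%) and 69 lower (1.12%) in HLU, and 439 (7.1%) before adjustment. Without members rich in skeletal, S100 or Jchain transcripts, 6 of 3855 genes (0.156%) passed, all lower in HLU, and 133 (3.45%) before adjustment, and the 6 were Ctgf and the cartilage and mesenchymal transcripts Sparc, Dcn, Comp, Chad and Cytl1. Both HLU libraries were higher than both Ctrl libraries for 747 genes (15.4%) and lower for 893 (18.4%), 1640 (33.9%) in all, and these shares are the background for the counts of listed genes below. The median log2 fold change of all genes tested was -0.02.

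The levels of the pre-B cell and B cell receptor genes in HLU replicate 1 were close to those of the Ctrl libraries. Vpreb3 had 509, 682, 2514 and 47 UMIs in Ctrl replicates 1 and 2 and HLU replicates 1 and 2, or 2167, 1698, 1982 and 807 CPM after TMM scaling, which is meant by CPM alone from here on. HLU replicate 1 lay between the Ctrl libraries and HLU replicate 2 below them, and the log2 fold change was -0.45 ± 0.46 (SE) with all libraries and 0.02 ± 0.29 without HLU replicate 2. These genes, with Cd79a and Cd79b, chose the members, so their values are a description. Igll1 stood at 489, 580, 458 and 0 CPM and Vpreb1 at 592, 939, 655 and 0 CPM, with log2 fold changes of -1.01 ± 1.01 and -1.06 ± 1.096 (SE) that became -0.24 ± 0.35 and -0.24 ± 0.36 without HLU replicate 2. Cd79a stood at 2767, 1967, 2712 and 1991 CPM, and Ighm at 4729, 3150, 4711 and 2969 CPM. The median log2 fold change of the 7 genes of these receptors, 5 of which the rule used, was -0.35, or 0.02 without HLU replicate 2.

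The recombination genes gave the same picture, with HLU replicate 1 near the Ctrl libraries. Rag1 stood at 230, 157, 205 and 0 CPM, Rag2 at 46.8, 44.8, 66.2 and 0 CPM and Dntt at 153, 401, 243 and 0 CPM. Dntt had a log2 fold change of -0.84 ± 0.92 (SE), and -0.23 ± 0.45 without HLU replicate 2. Of 14 recombination genes 8 were tested, 0 passed and the median log2 fold change was -0.51, or 0.06 without HLU replicate 2. Hmgb1 (1188, 1668, 1001 and 978 CPM), Hmgb2 (1005, 1634, 1361 and 326 CPM) and Xrcc6 (524, 207, 354 and 34.3 CPM), which bend DNA or bind its ends, were the most abundant of them.

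Transcription factors of early B cell development, 24 of 27 tested, included 0 that passed, 4 higher and 3 lower in both HLU libraries, with a median log2 fold change of -0.11 that turned to 0.13 without HLU replicate 2. Ebf1 stood at 2741, 2445, 3073 and 704 CPM, with a log2 fold change of -0.44 ± 0.61 (SE) that became 0.23 ± 0.25 without HLU replicate 2. Pax5 stood at 162, 127, 223 and 223 CPM, so that both HLU libraries were above both Ctrl libraries. Sox4 stood at 502, 383, 549 and 0 CPM and Mef2c at 255, 423, 334 and 669 CPM. Kit, the stem cell factor receptor of early progenitors, had 1, 11, 16 and 0 UMIs and was too low to test.

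Signalling genes below the receptors had more members higher than lower in HLU, without a call. Of 17 tested of 19, 0 passed, 6 (against a background of 15.4%) were higher in both HLU libraries and 0 were lower, and the median log2 fold change was 0.38, or 0.52 without HLU replicate 2. Syk, the kinase that docks on Cd79a and Cd79b, stood at 221, 189, 453 and 275 CPM, higher in both HLU libraries. Cd24a (1217, 1736, 1258 and 240 CPM) and Blnk (519, 376, 462 and 137 CPM), an adaptor, overlapped between the groups. Of the interleukin-7 genes, 8 of 15 were tested, 0 passed and 5 were higher in both HLU libraries, with a median log2 fold change of 0.43, or 0.21 without HLU replicate 2. Il7r stood at 302, 169, 301 and 17.2 CPM, Pim1 at 409, 386, 464 and 429 CPM and Jak1 at 140, 179, 188 and 292 CPM.

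Cd74, Ms4a1 and Ighd, which are gained by immature and mature B cells, had their highest level in HLU replicate 2. Cd74 stood at 1503, 1997, 1715 and 5904 CPM, with a log2 fold change of 1.11 ± 0.56 (SE) that became -0.04 ± 0.30 without HLU replicate 2. Ms4a1 stood at 89.4, 74.7, 161 and 686 CPM and Ighd at 34.1, 224, 256 and 1133 CPM, and for both genes HLU replicate 1 was also above the Ctrl libraries. Of 25 such genes 21 were tested, 0 passed, 6 were higher in both HLU libraries and 0 were lower, and the median log2 fold change was 0.46, or 0.17 without HLU replicate 2. Igkc stood at 79706, 4417, 18439 and 79890 CPM and Iglc1 at 31689, 436, 1370 and 1150 CPM. A single cell held 91.2%, 56.0%, 13.6% and 91.0% of the Iglc1 UMIs.

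Receptors that keep B cells in marrow or let them leave were tested for 10 of 14 genes, with 0 calls, 2 higher and 1 lower in both HLU libraries and a median log2 fold change of 0.17, or 0.075 without HLU replicate 2. Cxcr4, which holds precursors near stromal cells, stood at 234, 142, 333 and 85.8 CPM. Ccr7 stood at 217, 169, 200 and 223 CPM.

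**Figure D4:**
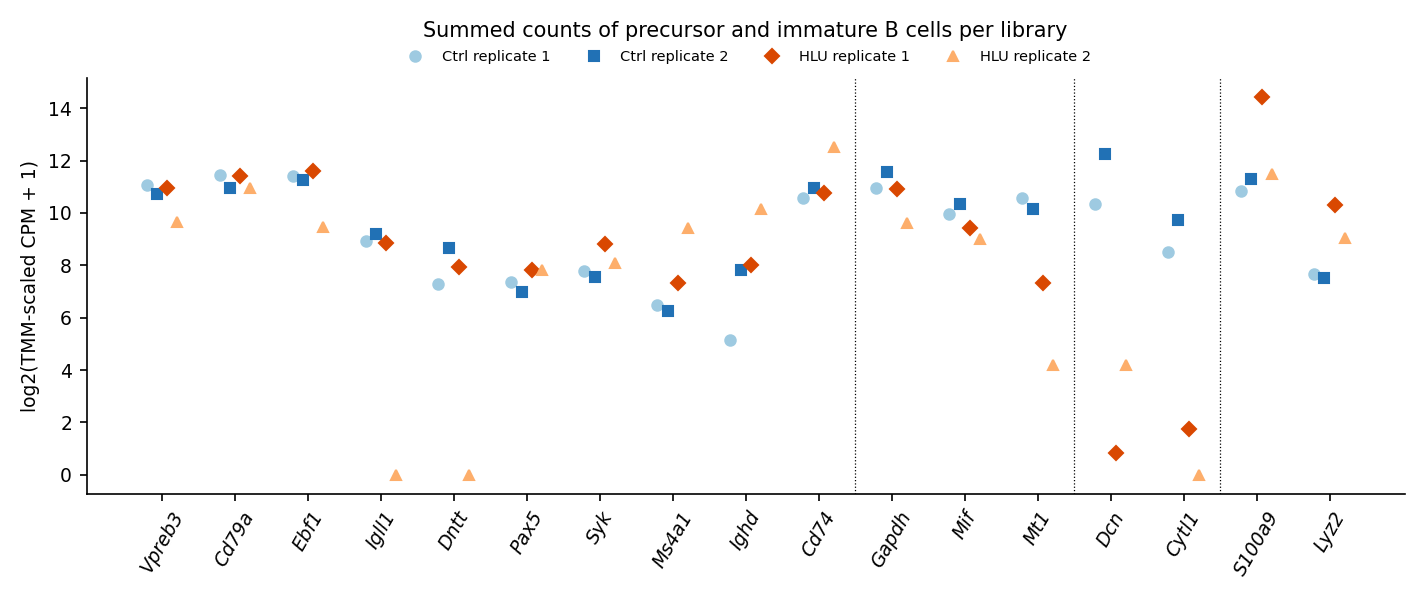
Level of 17 genes in the summed members of each library, as log2 of TMM-scaled CPM plus 1, with B cell genes on the left, then Gapdh, Mif and Mt1, then the skeletal transcripts Dcn and Cytl1 and the myeloid transcripts S100a9 and Lyz2. HLU replicate 1 lies close to the Ctrl libraries for Vpreb3, Ebf1, Igll1 and Dntt, HLU replicate 2 is at 0 for Igll1 and Dntt and highest for Ms4a1, Ighd and Cd74, and Dcn and Cytl1 separate the groups.

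Genes of DNA replication also had negative fold changes, without a call. Their summed level was 793, 1351, 698 and 566 raw CPM in Ctrl replicates 1 and 2 and HLU replicates 1 and 2, so that the groups did not overlap. All 14 tested of 20 had a negative log2 fold change, 0 passed, 7 were lower in both HLU libraries against a background of 18.4%, and the median was -0.73, or -0.79 without HLU replicate 2. Pcna, the sliding clamp of the polymerases, stood at 119, 167, 90.7 and 85.8 CPM and Slbp, which binds histone messages, at 153, 152, 109 and 68.6 CPM. Dut stood at 89.4, 202, 73.3 and 103 CPM and overlapped. Rrm2, a subunit of ribonucleotide reductase, passed without HLU replicate 2 (log2 fold change -1.96 ± 0.45 SE, edgeR adjusted p = 0.0265). The share of Igll1/Vpreb1-high cells was also lower in the HLU libraries, and its part in this difference was not tested.

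Mitosis genes, 20 of 25 tested, included 0 that passed and 2 that were lower in both HLU libraries, with a median log2 fold change of -0.42, or -0.21 without HLU replicate 2. Their summed level of 832, 2402, 1606 and 162 raw CPM put HLU replicate 1 between the Ctrl libraries. Cks2 stood at 111, 306, 236 and 51.5 CPM, Cenpa at 102, 309, 176 and 51.5 CPM and Ube2c at 123, 249.01, 212 and 0 CPM.

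Genes of glycolysis and targets of the hypoxia-inducible factor had negative fold changes throughout, without a call. All 19 tested of 23 had a negative log2 fold change, 14 were lower in both HLU libraries against a background of 18.4%, and the median was -0.90. Without HLU replicate 2 the median was -0.66, and without members rich in skeletal, S100 or Jchain transcripts it was -0.90. Mif, a cytokine and target of the factor, stood at 983, 1300, 694 and 515 CPM (log2 fold change -0.90 ± 0.36 SE). Gapdh stood at 1975, 3040, 1921 and 789 CPM (-0.87 ± 0.47) and Aldoa (ENSMUSG00000030695, of the pair of identifiers with this symbol) at 1277, 1591, 1276 and 652 CPM (-0.55 ± 0.41), and for both genes HLU replicate 1 was close to Ctrl replicate 1. The summed level of 7197, 11009, 7591 and 3087 raw CPM therefore overlapped between the groups. In other Cd79-positive cells of the same libraries, 22 of these genes had a median log2 fold change of -1.17, and 3 passed, all lower in HLU. Over all genes tested in those cells, 238 of 8574 (2.78%) passed as lower in HLU.

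**Figure D5:**
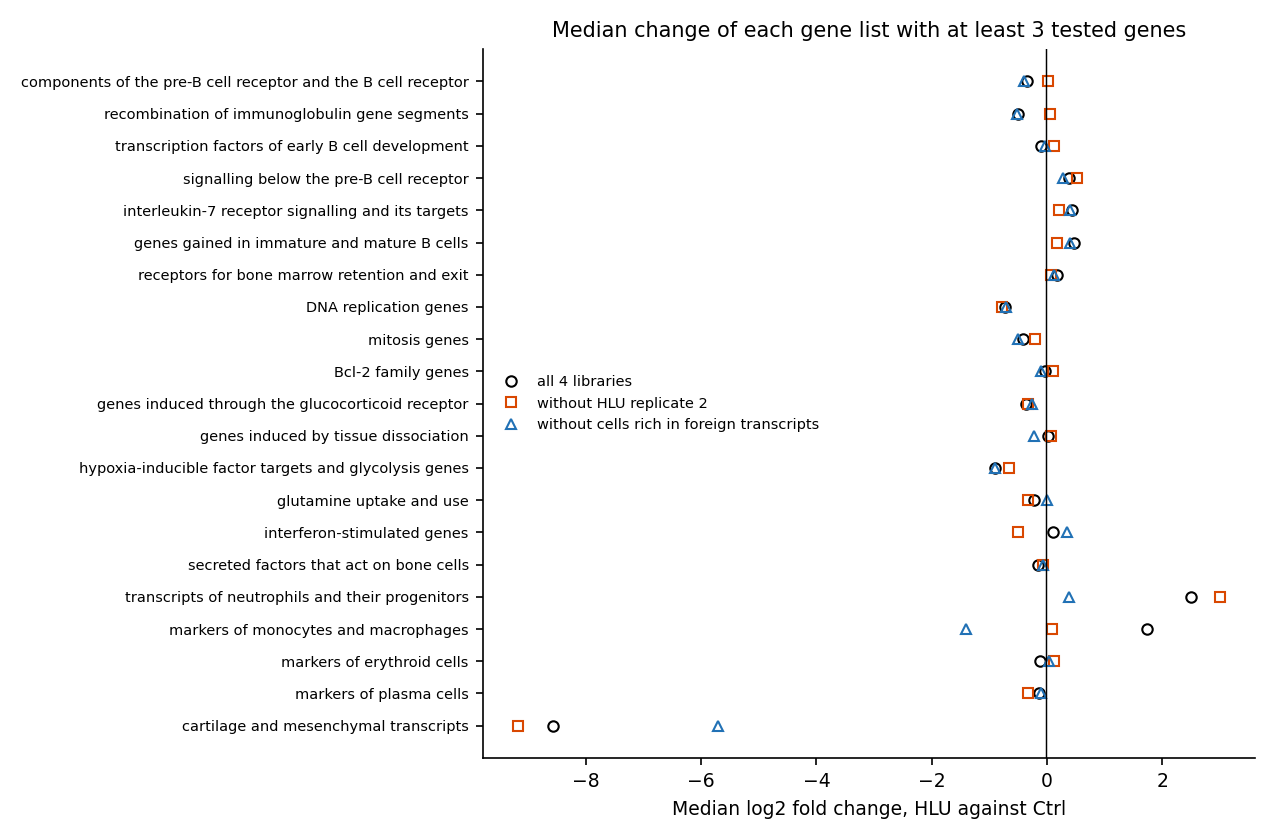
Median log2 fold change of HLU against Ctrl (horizontal) for each list with at least 3 tested genes, with all 4 libraries (circles), without HLU replicate 2 (squares) and without members rich in skeletal, S100 or Jchain transcripts (triangles), and the median of all genes as a line. Cartilage and mesenchymal transcripts lie between -9.17 and -5.70, and neutrophil transcripts lie highest with all cells. The DNA replication and glycolysis lists are below the line in each setting, as are the mitosis, glucocorticoid, plasma cell and bone-acting lists.

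Glucocorticoid-induced genes were examined because restraint and unloading are known stressors. Of 14 genes 10 were tested, 0 passed, 1 was higher and 4 were lower in both HLU libraries, and the median log2 fold change was -0.37, or -0.34 without HLU replicate 2. Txnip stood at 430, 294, 292 and 738 CPM and overlapped. The metallothioneins Mt1 (1528, 1128, 160 and 17.2 CPM) and Mt2 (370, 421, 35.5 and 34.3 CPM), which bind zinc, were lower in both HLU libraries. Mt1 had a log2 fold change of -3.59 ± 0.70 (SE, edgeR adjusted p = 0.307) and Mt2 of -3.48 ± 0.44 (SE, edgeR adjusted p = 0.0963). Without HLU replicate 2 both passed (Mt1 -3.07 ± 0.39, Mt2 -3.49 ± 0.44, SE, edgeR adjusted p = 0.000115 and 9.2e-05), and both passed in DESeq2 with all libraries (adjusted p = 0.00134 and 0.00222). A single cell held 86.9% and 84.3% of the Mt1 UMIs of Ctrl replicates 1 and 2. Without members rich in skeletal, S100 or Jchain transcripts, the log2 fold change of Mt1 was -0.37. Neither Mt1 nor Mt2 was among the 6 genes that passed in that setting.

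Further lists had 0 calls in edgeR with all libraries as well. Bcl-2 family genes (8 of 15 tested) had a median log2 fold change of -0.03, or 0.10 without HLU replicate 2, and no member on 1 side in both libraries, with Mcl1 at 404, 436, 457 and 275 CPM, Bax at 315, 204, 209 and 326 CPM and Bcl2l11 at 192, 102, 67.0 and 154 CPM. Genes of glutamine uptake and use (16 of 23 tested) had a median of -0.22, or -0.33 without HLU replicate 2, with 4 lower in both HLU libraries. Among them, Slc38a2 stood at 455, 491, 382 and 240 CPM, Slc3a2 at 404, 194, 142 and 412 CPM and Slc38a1 at 281, 219, 269 and 240 CPM. Genes induced by tissue dissociation (18 of 21 tested) had a median of 0.01, or 0.068 without HLU replicate 2, with 2 higher and 4 lower in both HLU libraries. Hspa1a, a heat shock chaperone, had 384, 173, 147 and 2 UMIs, and 1 cell held 92.2%, 50.3%, 37.4% and 100% of them. It passed without HLU replicate 2 (log2 fold change -3.17 ± 0.60 SE, edgeR adjusted p = 0.00443) and in DESeq2 (-3.60 ± 0.84 SE, adjusted p = 0.0042). Hspa8 stood at 1558, 1624, 1573 and 1888 CPM, Jund at 1375, 1026, 1529 and 206 CPM and Hsp90aa1 at 383, 849, 622 and 566 CPM. Interferon-stimulated genes (4 of 16 tested) had a median of 0.10 that turned to -0.51 without HLU replicate 2, with Ifi27l2a at 319, 276, 486 and 189 CPM, Ly6a at 328, 39.8, 52.0 and 498 CPM and Bst2 at 106, 94.6, 70.9 and 120 CPM.

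Among secreted factors that act on bone cells, RANKL had few UMIs. Tnfsf11, which encodes this osteoclast factor, had 0, 0, 2 and 0 UMIs among the members of Ctrl replicates 1 and 2 and HLU replicates 1 and 2. Tnfrsf11b, which encodes its decoy receptor osteoprotegerin, had 9, 49, 0 and 0 UMIs, and passed without HLU replicate 2 (edgeR adjusted p = 0.000129) and in DESeq2 (adjusted p = 0.00537). It followed the cartilage and mesenchymal transcripts across libraries, and their part in this difference was not tested. Of 16 such genes 5 were tested, 0 passed in edgeR with all libraries and the median log2 fold change was -0.16, or -0.079 without HLU replicate 2. Ltb stood at 234, 122, 214 and 343 CPM, Tgfb1 at 213, 341, 267 and 85.8 CPM and Ccl3 at 97.9, 59.8, 115 and 34.3 CPM.

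The genes nearest to a call included Dcn and Cytl1 from the cartilage and mesenchymal list and Lyz2 from the list of monocyte markers. In the direction of lower values in HLU they were Cytl1, Ctgf, Dcn, Bgn and Mt2, each with an edgeR adjusted p of 0.0963. Dcn had 302, 1967, 1 and 1 UMIs in Ctrl replicates 1 and 2 and HLU replicates 1 and 2. Cytl1, a cartilage cytokine, had 86, 343, 3 and 0 UMIs, Ctgf had 60, 311, 2 and 0 and Bgn had 17, 54, 2 and 0. In Ctrl replicates 1 and 2 a single cell held 33.8% and 54.3% of the Dcn UMIs. All 12 tested of the 23 cartilage and mesenchymal transcripts were lower in both HLU libraries, with a median log2 fold change of -8.57, or -9.17 without HLU replicate 2, and they included Chad (175, 1840, 1.58 and 0 CPM) and Sparc (175, 1800, 0.788 and 0 CPM). In the direction of higher values the nearest were Wfdc21 (25.5, 24.9, 486 and 172 CPM), Chil3 (46.8, 29.9, 476 and 137 CPM), Vsir (12.8, 9.96, 85.1 and 34.3 CPM), Gm5483 (4.26, 22.4, 132 and 704 CPM) and Lyz2 (204, 184, 1278 and 532 CPM). Their edgeR adjusted p-values were 0.226 to 0.386.

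Neutrophil transcripts, 13 of 14 tested, had a median log2 fold change of 2.49 and 0 calls, and 4 were higher in both HLU libraries. S100a9 stood at 1852, 2545, 21845 and 2832 CPM, S100a8 at 1562, 3897, 17757 and 2609 CPM and Ngp at 234, 271, 3882 and 85.8 CPM. Without HLU replicate 2 the median was 2.99. Without members rich in skeletal, S100 or Jchain transcripts it was 0.38, over 7 tested genes. That filter used S100a8 and S100a9, which belong to this list, so the lower median is no test. Monocyte markers (3 of 12 tested) went both ways and included Fn1 at 179, 1375, 10.2 and 51.5 CPM and Ly6c2 at 136, 29.9, 82.8 and 549 CPM. Without HLU replicate 2, Lyz2 passed as higher in HLU (log2 fold change 2.70 ± 0.33 SE, edgeR adjusted p = 7.37e-05) and Fn1 as lower (-6.24 ± 0.95 SE, edgeR adjusted p = 0.000571). Fn1 also passed in DESeq2 with all libraries (adjusted p = 0.000758). With 42, 552, 13 and 3 UMIs, Fn1 followed the cartilage and mesenchymal transcripts across libraries, and their part in its difference was not tested. Erythroid markers (3 of 12 tested) had a median of -0.13 that turned to 0.12 without HLU replicate 2, with Tfrc at 63.8, 89.6, 85.9 and 17.2 CPM, Car2 at 55.3, 69.7, 47.3 and 68.6 CPM and Hbb-bs at 29.8, 4.98, 73.3 and 85.8 CPM. Plasma cell markers (4 of 8 tested) had a median of -0.13, or -0.34 without HLU replicate 2, with Jchain at 12097, 2.49, 1007 and 10040 CPM, Mzb1 at 1984, 717, 892 and 1699 CPM and Xbp1 at 306, 87.2, 89.9 and 326 CPM. Of the 9 markers of plasmacytoid dendritic cells 2 were tested, led by Tcf4 at 247, 274, 233 and 240 CPM, and none of the 12 T cell markers had enough counts.

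The members were compared with the other Cd79-positive cells for their response to HLU. In the other Cd79-positive cells, 246 of 8574 genes (2.87%) passed in edgeR, 8 higher (0.0933%) and 238 lower (2.78%) in HLU, and 770 (8.98%) before adjustment. The difference of the HLU effect between the populations, fitted in 1 model, passed for 2 of 8389 genes (0.0238%), Mt1 and Loxl2, and 273 (3.25%) had an unadjusted p under 0.05. Both populations come from the same libraries, so their effects are not independent. For the stage genes, the other Cd79-positive cells were tested for Ebf1 (log2 fold change -0.08 ± 0.26 SE), Ms4a1 (0.02 ± 0.28 SE) and Cd74 (-0.37 ± 0.22 SE), and none of these passed.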

How the data were processed

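Bone cells of 2 Ctrl and 2 HLU libraries were measured by 10x single-cell RNA sequencing. According to the submitters' processing notes, Cell Ranger 6.0.0, Seurat 4.1.0 and the build mm10 were used, and the authors deposited raw UMI counts per gene and barcode, without normalization. The libraries held 57925383, 61296053, 47819046 and 99849070 UMIs in 10000, 10000, 10000 and 10003 barcodes (Ctrl replicates 1 and 2, HLU replicates 1 and 2). The methods give n = 2 mice per group, but nothing in the labels ties a library to an animal, so p-values measure the spread between these libraries.

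The members, gene lists, classes and rule for naming genes were chosen with earlier results of these data known. Named genes are the stage genes, the 3 most abundant tested genes of each list, listed genes that passed, and the 5 largest changes in each direction among genes that passed with groups that did not overlap, filled up by the smallest p where fewer passed. Some genes that this rule names are not reported here. Gene positions come from GENCODE M21, where 99.9% of the 31053 genes were found, and promoters from RefSeq, which held 9 of 12 genes looked up. Putative doublets were marked with Scrublet (scanpy 1.11.5, expected rate 0.8% per 1000 cells) but kept.

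Shares of cells were compared by two-sided exact permutation tests over libraries. Counts summed per library were tested with edgeR 4.0.16 (TMM factors, filterByExpr, quasi-likelihood test, Benjamini-Hochberg adjustment over all genes tested) in R 4.3.3. The test was tried on simulated data, where of 4842 genes 60 of 100 changed 4-fold and 97 of 100 changed 16-fold were recovered in the comparison of HLU with Ctrl, with 10 false calls. Apart from the set changes, the simulated libraries shared 1 mean profile and had no genes carried mostly by a single cell. The members differ from this in both respects, so these rates do not give the power in the data. Alternatives were DESeq2 1.42.0, RLE factors, other filters on low counts, each library left out, the replicate number as a block, doublets left out, genes of other cells left out, 18 cells drawn per library, cells that are not dividing, at least 4 UMIs of the surrogate light chain genes, thinning to 1000 UMIs, haemoglobin of up to 5% and other denominators. Members without over 1% skeletal UMIs, 1% S100a8 and S100a9 UMIs or 10 Jchain UMIs were an alternative chosen after seeing the data. The other steps ran in Python 3.11.15 (pandas 2.3.3, scipy 1.17.1, numpy 2.4.6).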

Additional observations from a re-analysis of the deposited data

Results flagged for a closer look

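Mt1 and Loxl2 were the genes whose HLU effect differed between the members and the other Cd79-positive cells. For Mt1 the difference of the log2 fold changes was -2.62 ± 0.37 (SE, edgeR adjusted p = 0.0351), the members having 359, 453, 203 and 1 UMIs and the other Cd79-positive cells 336, 744, 1298 and 66 in Ctrl replicates 1 and 2 and HLU replicates 1 and 2. A single cell held 86.9%, 84.3%, 32.5% and 100% of the Mt1 UMIs of the members and 45.2%, 13.4%, 32.7% and 50% of those of the other Cd79-positive cells. For Loxl2 the difference was -7.10 ± 1.02 (SE, edgeR adjusted p = 0.0351). The members had 2, 11, 1 and 0 Loxl2 UMIs and the other Cd79-positive cells 6, 30, 337 and 0, and all 337 were in 1 cell of HLU replicate 1.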

How the results depend on the processing

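Leaving out each library in turn, the difference in the share of cells kept ran from -0.567 to 2.28 percentage points, in the share of Cd79-positive cells from -24.4 to 4.21 and in the dividing share from -18.3 to 4.75, and the cause was not tested. For these 3 shares the differences were 0.857, -10.1 and -6.76 in the main setting. Members chosen after thinning gave 0.528, -2.65 and -9.54, and at least 4 UMIs of the surrogate light chain genes gave 0.694, -5.00 and -16.9. With a library left out, the Igll1/Vpreb1-high share, which uses genes of the rule, ran from -23.2 to -7.59 and the light chain share from 11.1 to 24.1. Thinning gave -27.3 and 33.4, and at least 4 UMIs of the surrogate light chain genes gave -26.8 and 30.4, against -15.4 and 17.6. HLU replicate 2 held 1 member after thinning and 3 members at the limit of 4 UMIs, so its shares in those settings rest on very few cells. The smallest p that 2 libraries against 2 allow is 0.33, so none of these tests could pass.

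The count of genes called in the members was 0 with RLE factors, with at least 10 counts in every library, with doublets or genes of other cells left out and with 18 cells drawn per library. It was 24 with DESeq2 (12 of them listed genes), 154 with no filter on low counts (35 listed), 2 in cells that are not dividing (2 listed), 4 with at least 4 UMIs of the surrogate light chain genes (1 listed) and 6 without cells rich in foreign transcripts (5 listed, all 5 of them cartilage and mesenchymal transcripts). Leaving out each library gave 37 to 105 calls, 19 to 28 of them listed genes, from fits in which the lone library of a group is assumed to vary like the other group. All 24 DESeq2 calls also passed without HLU replicate 2 in edgeR. The difference of the HLU effect between populations passed for 46 genes with no filter on low counts, 8 with doublets left out and 0 to 26 with a library left out. With a library left out, the log2 fold change ran from -1.27 to 0.019 for Vpreb3, from -1.89 to 0.23 for Ebf1 and from -0.045 to 1.74 for Cd74, and changed sign for each without HLU replicate 2.

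With the replicate number as a block 0 genes passed and 139 had an unadjusted p under 0.05, against 186 without it. The deviations of same-numbered libraries correlated at -0.06. With 2 libraries per group this is a single value, so it cannot show whether the numbers pair anything. HLU replicate 2 added 18 members and 61880 UMIs to the comparisons that include it.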
